A study of Oryza sativa with 9 samples.

Results

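Type-A response regulators (RRs) are small proteins of the cytokinin pathway, and 8 of them were followed here in submerged rice leaves: *RR1* (LOC_Os04g36070), *RR2* (LOC_Os02g35180), *RR3* (LOC_Os02g58350), *RR4* (LOC_Os01g72330), *RR6* (LOC_Os04g57720), *RR7* (LOC_Os07g26720), *RR9* (LOC_Os11g04720) and *RR10* (LOC_Os12g04500). The genes were taken by their 8 locus names, and each had an entry among the 38652 of the deposited expression table. If a name was given to several entries, the one holding a transcript of that locus was taken. Of the 8 genes, 5 passed the filter on low values and were tested (*RR2*, *RR3*, *RR6*, *RR9* and *RR10*), out of 22946 entries tested in all.

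Cytokinins are perceived by membrane-bound histidine kinases, which pass a phosphate group through histidine phosphotransfer proteins to type-B response regulators in the nucleus. The type-B regulators are transcription factors, and the type-A genes are among their fast targets. A type-A protein has the receiver domain that takes the phosphate but lacks the DNA-binding domain, and most type-A proteins act as negative feedback on the pathway, so that their transcripts are widely used as a readout of cytokinin response. Gibberellin and cytokinin act against each other in many shoot tissues.

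The study compared leaves of IR64, an *indica* variety that does not tolerate submergence. The groups were sprayed with paclobutrazol (PB, an inhibitor of gibberellin synthesis, 200 mg/L; PBT), with gibberellic acid (GA, 100 mg/L; GAT) or with the solvent alone (Control). All groups shared the spray of 25 mL at 20 days after germination, given 2 days before submergence, and 4 days of complete submergence under 100 cm of water, so no group without submergence was available for comparison. Each group has 3 libraries. By the paper's text the libraries of a group are biological replicates, and the numbers of plants and pots behind a library are not given in the sources used here. The solvent of the Control is ethanol in the sample labels and methanol in the paper's methods.

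The unit of all levels is FPKM, fragments per kilobase of transcript scaled to the mapped fragments of the library, so levels can be set side by side between genes. The differences were tested with limma on log2(FPKM + 1), with 1 fit of the 3 groups over all tested entries. A gene was called differentially expressed (DEG) when the Benjamini-Hochberg adjusted p lay below 0.05 and the log2 fold change reached 1 in either direction, here named the fold limit. Adding 1 before taking logs makes the fold changes of low genes smaller than the ratios of their FPKM. The libraries summed to between 432165 and 471800 FPKM and listed between 14322 and 17529 entries at 0, and in 394 entries a single 0 stood beside values above 10 FPKM in the other libraries of the group. The numbers of fragments behind a value are not given in the table, so the precision rests on the spread of the 3 libraries. The table was used because 4 of the 9 files deposited for single libraries, those of the 3 GAT libraries and of PBT replicate 3, hold the column of another library. The file of GAT replicate 1 holds the column of PBT replicate 3, a library of another group, while the others hold a column of their own group. The leaf label was checked with the 4 entries found of 5 listed genes for the Rubisco small subunit and the chlorophyll a/b-binding proteins. Their summed level was 10843 to 11621 FPKM in PBT, 7933 to 8166 FPKM in GAT and 17476 to 18370 FPKM in the Control. The PBT values include a library in which the *CAB2R* gene is listed at 0, while it stood at 1059.6 and 1099 FPKM in the others. None of the 3 listed root markers had an entry with the expected description, so root tissue was not checked. Of 3 shoot meristem markers only *OSH71* was used, and it was at 0 to 0.224 FPKM in PBT, 0 to 0.0398 FPKM in GAT and 0.0122 to 0.384 FPKM in the Control. The 4 cell division genes together reached 0.199 to 1.58 FPKM in PBT, 0 to 0.151 FPKM in GAT and 0.394 to 0.554 FPKM in the Control. In bulk leaf RNA, fewer cells of a type and less RNA per cell cannot be told apart, and the part of these marker differences in the results on the regulators was not tested.

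Of the tested regulators, *RR9* had the largest differences in PBT/GAT and PBT/Control, with the highest levels in PBT and the lowest in GAT. Its level was 12.2, 12.0 and 8.91 FPKM in the PBT libraries, 3.64, 3.25 and 2.72 FPKM in the GAT libraries, and 6.58, 4.39 and 5.29 FPKM in the Control libraries. Every PBT library lay above every Control library and every Control library above every GAT library, a full separation in this order that 0.981% of the tested entries showed (225 of 22946). The order was taken from the values of *RR9* itself, and full separations in other orders were not counted. The means were 11.1 ± 1.86 FPKM in PBT, 3.21 ± 0.462 FPKM in GAT and 5.42 ± 1.10 FPKM in the Control (SD, n = 3 each).

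In PBT/GAT, *RR9* was a DEG with a log2 fold change of 1.51 (SE 0.21, 95% confidence interval 1.03 to 1.99, limma adjusted p = 0.00309), and its mean FPKM was 3.45 times as high in PBT as in GAT. It was the only DEG among the 5 tested regulators in this comparison, in which 6.30% of all tested entries were DEGs, 3.48% being higher and 2.82% lower in PBT. At an adjusted p under 0.05 without the fold limit the share was 9.37%. A larger log2 fold change was found for 750 of the tested entries. The *RR9* call held in each of the 22 alternative settings in which *RR9* had its own entry, with log2 fold changes between 1.43 and 1.75 and adjusted p between 0.00214 and 0.0177.

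The PB and GA sprays were also each set against the solvent. In PBT/Control the *RR9* mean was 2.04 times as high in PBT, with a log2 fold change of 0.91 (SE 0.21, interval 0.43 to 1.39). This passed the adjusted p (limma, 0.0394), as 6.37% of all tested entries did, but not the fold limit. The adjusted p ranged from 0.0270 to 0.130 over the same alternatives, and it was above 0.05 without PBT replicate 1 (0.122) or PBT replicate 2 (0.130), without GAT replicate 2 (0.0603) or GAT replicate 3 (0.0528), and without Control replicate 2 (0.105) or Control replicate 3 (0.0970). It was also above 0.05 with only these 2 groups in the fit (0.0690) or the replicate number as a block (0.0651). A pseudocount of 0.1 put the log2 fold change past the fold limit (1.02) and the adjusted p above 0.05 (0.0529). The fold limit was passed together with the adjusted p without PBT replicate 3 (1.05) or Control replicate 1 (1.04). In GAT/Control the *RR9* mean was 0.592 times as high in GAT, with a log2 fold change of -0.60 (SE 0.21, interval -1.08 to -0.12, adjusted p = 0.112), so that the separation of the libraries did not pass the test. Both comparisons share the Control libraries.

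No regulator was therefore a DEG in PBT/Control (0 of 5, against 4.34% of all tested entries, 2.87% higher and 1.47% lower) or in GAT/Control (0 of 5, against 8.42%, 4.71% higher and 3.72% lower). At an unadjusted p under 0.05, *RR9* was the only regulator in PBT/Control, where 19.8% of all tested entries reached this level. In GAT/Control, *RR3* and *RR9* reached it, as did 25.1% of all tested entries, both being lower in GAT. As a group, the 5 regulators had a median log2 fold change of 0.12 in PBT/Control, -0.28 in GAT/Control and 0.39 in PBT/GAT, beside -0.04, 0.03 and -0.07 over all tested entries.

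**Figure D1:**
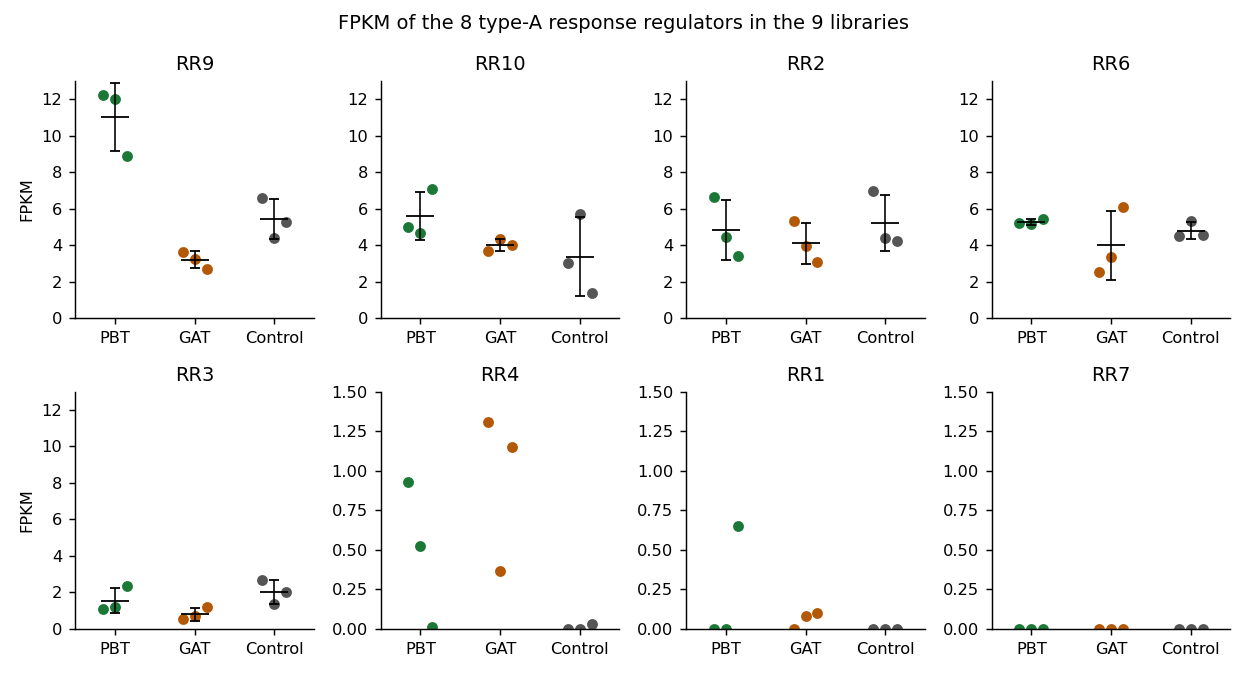
FPKM (vertical axis) of the 8 regulators in the PBT, GAT and Control libraries; points are libraries, and the horizontal mark with its bar is the mean ± SD of 3 libraries, drawn only for genes with no library at 0. The panels of *RR4*, *RR1* and *RR7* have a smaller scale. *RR9* is the only gene whose groups do not overlap in any pair, with 8.91 to 12.2 FPKM in PBT, 2.72 to 3.64 FPKM in GAT and 4.39 to 6.58 FPKM in the Control.

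*RR10* is the closest relative of *RR9*. Both loci lie in a duplicated segment shared by chromosomes 11 and 12, by their locus names *RR9* on chromosome 11 and *RR10* on chromosome 12. The deposited description calls the chromosome 11 locus OsRR10 and leaves the chromosome 12 locus unnumbered, while RefSeq places *RR9* on chromosome 11 and *RR10* on chromosome 12, and the RefSeq names are used here. Near-identical copies can exchange reads, and how such reads were divided between the entries is not stated in the sources used here, so the values of the individual genes are uncertain to that extent.

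*RR10* stood at 5.02, 4.67 and 7.11 FPKM in PBT, at 3.69, 4.33 and 4.03 FPKM in GAT, and at 3.01, 5.71 and 1.40 FPKM in the Control. The PBT libraries lay above the GAT libraries, while the Control libraries spread across both groups. The log2 fold change in PBT/GAT was 0.38 (SE 0.35, interval -0.43 to 1.19, adjusted p = 0.581), so a separation of the libraries was seen without passing the test. In PBT/Control it was 0.70 (interval -0.11 to 1.51, adjusted p = 0.327) and in GAT/Control 0.32 (interval -0.49 to 1.13, adjusted p = 0.628).

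When the FPKM of both copies were added, the sum was 17.2, 16.7 and 16.0 FPKM in PBT, 7.33, 7.58 and 6.75 FPKM in GAT, and 9.59, 10.1 and 6.68 FPKM in the Control. The PBT sums lay above all others, and the GAT and Control sums overlapped. Within PBT the SD of the sum was 0.615 FPKM, smaller than that of either copy (1.86 FPKM for *RR9* and 1.32 FPKM for *RR10*). Fitted as 1 entry in place of both, the sum was a DEG in PBT/GAT (log2 fold change 1.10, SE 0.18, adjusted p = 0.00674). In PBT/Control it had a log2 fold change of 0.87 (SE 0.18, adjusted p = 0.0254), under the fold limit. In GAT/Control it was -0.24 (interval -0.65 to 0.18, adjusted p = 0.466), closer to 0 than the value of *RR9* alone.

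**Figure D2:**
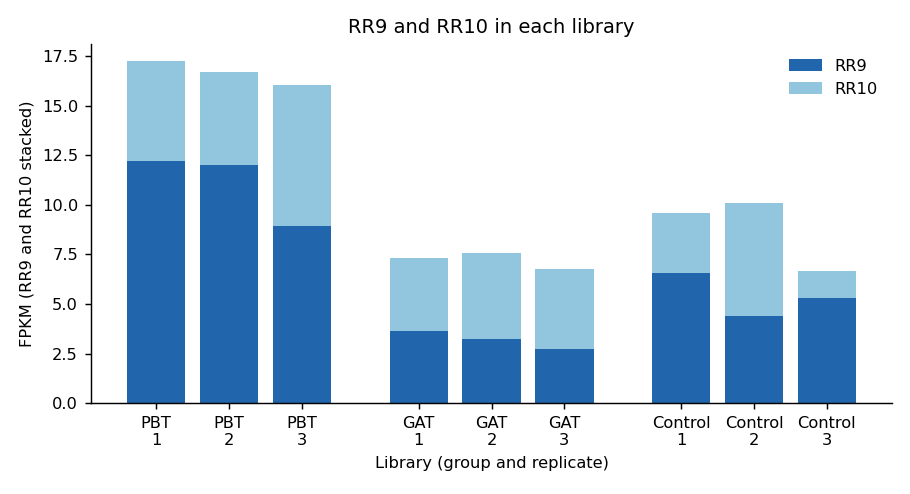
FPKM (vertical axis) of *RR9* and *RR10*, stacked, in each of the 9 libraries. The stacks reach 16.0 to 17.2 FPKM in PBT, 6.75 to 7.58 FPKM in GAT and 6.68 to 10.1 FPKM in the Control, and the share of *RR9* in the stack is lowest in GAT replicate 3 (40.3%).

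The share of *RR9* in the sum of both copies was 70.9%, 72.0% and 55.6% in PBT, 49.7%, 42.9% and 40.3% in GAT, and 68.6%, 43.5% and 79.1% in the Control. It was therefore higher in every PBT library than in every GAT library and varied most within the Control. Whether *RR9* and *RR10* differed in their response was tested as the change of log2(FPKM + 1) of *RR9* minus that of *RR10*. The change was 1.13 in PBT/GAT (exact two-sided permutation test, p = 0.1, the smallest that 3 against 3 libraries allow). It was -0.92 in GAT/Control (exact p = 0.2) and 0.21 in PBT/Control (exact p = 0.7), and the adjusted p over the 3 comparisons were 0.3, 0.3 and 0.7.

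Among the other tested regulators, the groups of *RR2* and *RR6* overlapped in every pair, and neither gene passed the test in any comparison. *RR2* was at 6.63, 4.46 and 3.43 FPKM in PBT, at 5.31, 3.97 and 3.06 FPKM in GAT, and at 6.96, 4.42 and 4.25 FPKM in the Control. The log2 fold changes of *RR2* were between -0.28 and 0.18. The confidence intervals reached from -0.93 to 0.83 over the 3 comparisons, so changes of up to nearly the fold limit remain possible for *RR2*.

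*RR6* was at 5.24, 5.15 and 5.46 FPKM in PBT, at 2.52, 3.36 and 6.12 FPKM in GAT, and at 4.50, 5.33 and 4.55 FPKM in the Control. The PBT libraries of *RR6* were the closest to each other of any group among the tested regulators (SD 0.161 FPKM), and GAT held both its lowest and its highest library. Its log2 fold change was 0.12 in PBT/Control (adjusted p = 0.862), -0.27 in GAT/Control (adjusted p = 0.567) and 0.39 in PBT/GAT (interval -0.20 to 0.99, adjusted p = 0.431). The interval in PBT/GAT leaves a change of nearly the fold limit possible for *RR6* as well.

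*RR3* was the lowest of the tested regulators in each group. Its entry carries only assembled transcripts under the locus name and no description. The levels were 1.08, 1.20 and 2.32 FPKM in PBT, 0.522, 0.699 and 1.19 FPKM in GAT, and 2.70, 1.38 and 2.04 FPKM in the Control. All GAT libraries lay below all Control libraries, with a mean ratio of 0.394, and PBT overlapped both. The log2 fold change in GAT/Control was -0.75 (SE 0.30, interval -1.43 to -0.07, adjusted p = 0.160). The values of *RR3* in PBT/Control (-0.27, adjusted p = 0.682) and PBT/GAT (0.48, adjusted p = 0.399) did not pass the test either.

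**Figure D3:**
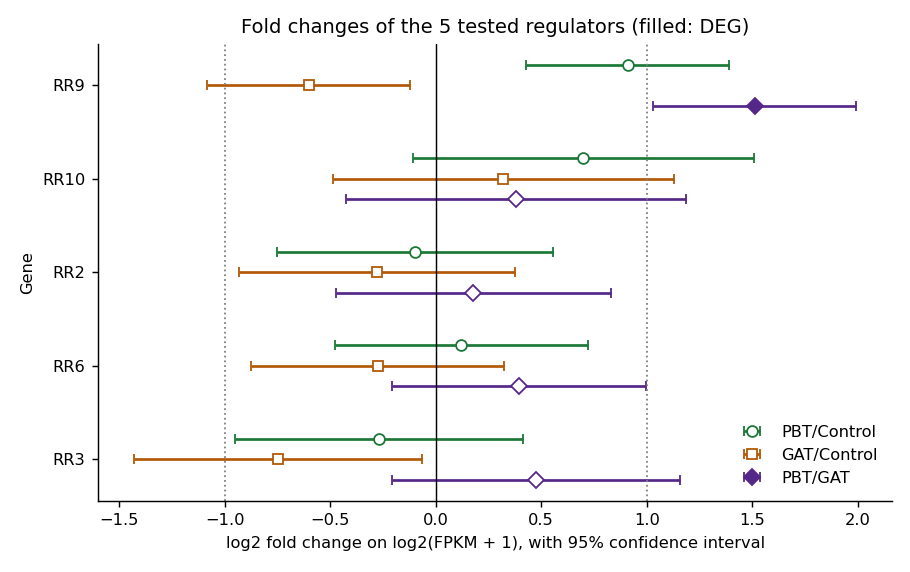
Log2 fold changes on log2(FPKM + 1) (horizontal axis) of the 5 tested regulators in PBT/Control, GAT/Control and PBT/GAT, with 95% confidence intervals from limma; filled symbols are DEGs and dotted lines mark the fold limit of 1. Only *RR9* in PBT/GAT is filled (1.51, interval 1.03 to 1.99), and the interval of *RR9* also leaves out 0 in PBT/Control and GAT/Control, as that of *RR3* does in GAT/Control.

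Counting separations over the 5 tested regulators, the libraries did not overlap for 1 in PBT/Control (*RR9*), 2 in GAT/Control (*RR3* and *RR9*) and 2 in PBT/GAT (*RR9* and *RR10*). Over all tested entries, 26.3% did not overlap in PBT/Control (12.9% higher and 13.4% lower in PBT), 29.5% in GAT/Control (16.8% higher and 12.8% lower in GAT) and 30.0% in PBT/GAT (12.6% higher and 17.4% lower in PBT). The counts of 1 and 2 among 5 genes are near this background.

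The order of the levels differed among the groups. In PBT, *RR9* came first and each of its libraries was above every library of the other regulators. *RR10* (5.60 ± 1.32 FPKM), *RR6* (5.29 ± 0.161 FPKM) and *RR2* (4.84 ± 1.63 FPKM) followed within each other's range, and *RR3* (1.54 ± 0.685 FPKM) was below them. In GAT, the first 3 places were held by *RR2* (4.11 ± 1.13 FPKM), *RR10* (4.01 ± 0.323 FPKM) and *RR6* (4.00 ± 1.89 FPKM), with *RR9* in the fourth. These neighbours overlapped, and only the step down to *RR3* (0.803 ± 0.345 FPKM) exceeded the spread. In the Control, *RR9*, *RR2* (5.21 ± 1.52 FPKM), *RR6* (4.79 ± 0.464 FPKM), *RR10* (3.37 ± 2.18 FPKM) and *RR3* (2.04 ± 0.656 FPKM) followed each other with no step beyond the spread of the libraries.

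The summed level of the 8 regulators was 31.1, 28.0 and 27.9 FPKM in PBT, 17.0, 16.1 and 18.4 FPKM in GAT, and 23.8, 21.2 and 17.6 FPKM in the Control. PBT lay above both other groups, which overlapped. *RR9* made up 31.9% to 42.9% of this sum in PBT, 14.8% to 21.5% in GAT and 20.7% to 30.1% in the Control. Without *RR9* the sums were 18.9, 16.0 and 19.0 FPKM in PBT, 13.3, 12.8 and 15.6 FPKM in GAT, and 17.2, 16.8 and 12.3 FPKM in the Control. Then PBT overlapped the Control and remained above GAT.

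The other 3 regulators were too low for the fit, and a value of 0 in them says only that the gene is listed at 0. *RR4* stood at 0.929, 0.522 and 0.0146 FPKM in PBT, at 1.31, 0.365 and 1.15 FPKM in GAT, and at 0, 0 and 0.0304 FPKM in the Control. Its GAT libraries were thus all above those of the Control, and PBT overlapped both groups. Its mean over the 9 libraries was 0.48 FPKM, just under the filter of 0.5 FPKM. With no filter, the log2 fold change of *RR4* in GAT/Control was 0.91 (limma adjusted p = 0.148).

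*RR1* was at 0, 0 and 0.651 FPKM in PBT, at 0, 0.0837 and 0.102 FPKM in GAT and at 0 in each Control library. A further assembled entry that carries the *RR1* locus name but no transcript of the locus stood at 0, 3.83 and 1.89 FPKM in PBT, at 0, 0.764 and 2.10 FPKM in GAT, and at 1.59, 1.02 and 1.01 FPKM in the Control. These values overlapped between all groups, and its adjusted p was between 0.714 and 0.943 in the 3 comparisons. *RR7* was listed at 0 in all 9 libraries. So was *RR5*, another type-A gene and the only one of 5 further listed type-A loci with an entry.

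The table gives GO terms to 6 of the 8 regulators, all except *RR3* and *RR6*, whose entries have no description. The 6 share “cytokinin mediated signaling pathway” and “circadian rhythm”. *RR1* and *RR7*, both low or at 0 in these leaves, also carry “red light signaling pathway”, and *RR2*, *RR4*, *RR9* and *RR10* carry “protein binding”. Of the 16 tested entries with the cytokinin term, *RR9* was the only DEG, and only in PBT/GAT. The shares of DEGs among all tested entries were 4.34% in PBT/Control, 8.42% in GAT/Control and 6.30% in PBT/GAT. The count for the cytokinin term in PBT/GAT is therefore near the background.

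The levels of *RR9* over the 9 libraries were then compared with those of the 10111 other entries with a locus name, a mean of at least 5 FPKM and no library at 0. Likeness was measured as the root mean square difference of log2(FPKM + 1), after subtracting the mean of each entry. The closest entry was *LOC_Os09g35030*, which the table lists as “dehydration-responsive element-binding protein, putative”, with a difference of 0.18 on the log2 scale. It was at 484, 519.9 and 499 FPKM in PBT, at 211, 202 and 186 FPKM in GAT, and at 288, 278 and 263 FPKM in the Control, so its groups were ordered as those of *RR9* at a far higher level.

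The next were *LOC_Os03g09900*, described as a membrane protein (difference 0.18), and *LOC_Os01g52750*, described as OsSub3, a putative subtilisin homologue (0.19). *LOC_Os03g09900* stood at 153 to 165 FPKM in PBT, 56.1 to 65.1 FPKM in GAT and 86.5 to 101 FPKM in the Control, without overlap. *LOC_Os01g52750* stood at 18.8 to 21.1 FPKM in PBT, 7.29 to 8.87 FPKM in GAT and 7.32 to 10.8 FPKM in the Control, where GAT and the Control overlapped.

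**Figure D4:**
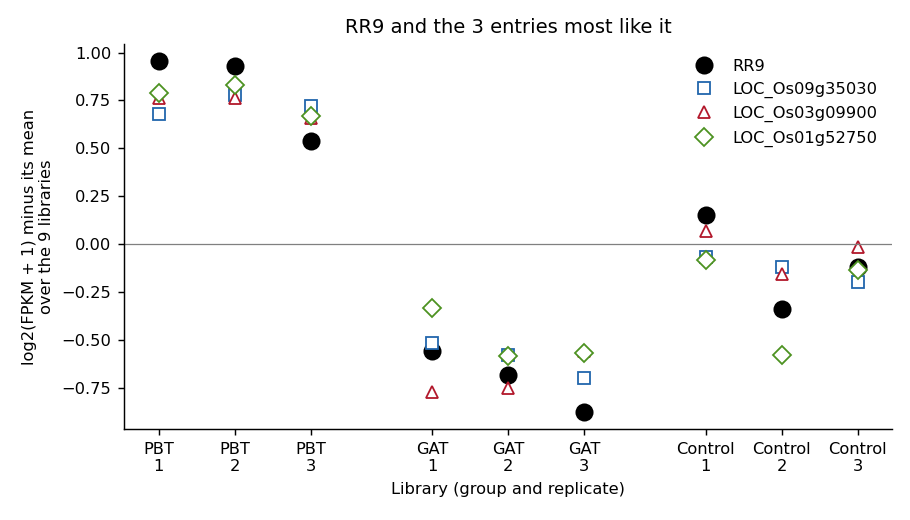
Log2(FPKM + 1) minus its mean over the 9 libraries (vertical axis) for *RR9* (filled circles) and the 3 entries with the smallest root mean square difference from it, by library. All 4 are highest in the PBT libraries, and in Control replicate 2 *LOC_Os01g52750* is within its GAT values (7.32 FPKM, against 7.29 to 8.87 FPKM in GAT).

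The rest of the cytokinin pathway was taken from a list of 54 loci, of which 41 had an entry. In 21 the deposited description matched the expected function, and 12 of these passed the filter. The other 20 were left out for their description, though 18 of them passed the filter, and some were DEGs (see Other observations). None of the 12 was a DEG in PBT/Control (against 4.34% of all tested entries) or in GAT/Control (against 8.42%), and 1 was in PBT/GAT, lower in PBT (against 6.30%). With listed loci counted whatever their description, the DEGs were 2 in PBT/Control, 2 in GAT/Control and 3 in PBT/GAT. At an unadjusted p under 0.05 in the limma fit there were 3 of the 12 in PBT/Control (against 19.8% of all tested entries), 6 in GAT/Control (against 25.1%) and 3 in PBT/GAT (against 23.3%). Their median was, on the log2 scale, -0.13 in PBT/Control, -0.45 in GAT/Control and 0.03 in PBT/GAT.

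The DEG was *CKX11* (*LOC_Os08g35860*), described as a cytokinin dehydrogenase precursor, an enzyme that breaks down cytokinins. It was at 4.91, 5.62 and 4.57 FPKM in PBT, at 19.3, 25.6 and 23.9 FPKM in GAT, and at 21.0, 25.7 and 7.70 FPKM in the Control. The PBT libraries lay below all others, and Control replicate 3 was far below the other Control libraries. In PBT/GAT its log2 fold change was -1.98 (SE 0.38, interval -2.84 to -1.12, adjusted p = 0.0132), with 0.0538 without PBT replicate 3 and 0.0509 without GAT replicate 2. In PBT/Control it was -1.52 (SE 0.38, adjusted p = 0.0517), and without Control replicate 3 it was -2.01 (adjusted p = 0.00221). In GAT/Control it was 0.47 (adjusted p = 0.490).

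Of the other cytokinin dehydrogenase genes, *CKX9* (*LOC_Os05g31040*) was at 4.88, 3.94 and 4.75 FPKM in PBT, at 3.77, 0.966 and 2.61 FPKM in GAT, and at 4.74, 6.11 and 4.74 FPKM in the Control. GAT lay below both other groups, and its log2 fold change in GAT/Control was -0.93 (SE 0.32, adjusted p = 0.105). In PBT/GAT it was 0.77 (adjusted p = 0.188). *CKX8*, which falls outside the naming rule and was chosen after its values were seen, was at 0.237, 0.401 and 0 FPKM in PBT, at 3.44, 0.854 and 0.378 FPKM in GAT, and listed at 0 in every Control library (GAT/Control adjusted p = 0.139).

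Of the type-B regulators, *RR23* (*LOC_Os02g55320*) was at 11.3, 12.0 and 13.5 FPKM in PBT, at 7.95, 6.76 and 7.99 FPKM in GAT, and at 11.6, 13.6 and 14.2 FPKM in the Control. GAT was below both other groups without overlap. Its log2 fold change was -0.72 in GAT/Control (SE 0.16, adjusted p = 0.0208) and 0.64 in PBT/GAT (SE 0.16, adjusted p = 0.0427), both past the adjusted p and under the fold limit. The adjusted p was 0.0598 in GAT/Control without GAT replicate 2. In PBT/GAT it lay between 0.0536 and 0.111 when any single PBT or GAT library was left out, and it was 0.0592 without the variance trend. *RR26* (*LOC_Os01g67770*) overlapped in every pair, at 6.14 to 8.24 FPKM in PBT, 7.19 to 11.0 FPKM in GAT and 5.11 to 7.79 FPKM in the Control. *RR22*, outside the naming rule, had -0.88 in GAT/Control (adjusted p = 0.193). The listed type-B loci left out of the counts for their description were higher in GAT than in the Control. Their log2 fold changes were 1.15 for *LOC_Os03g12350* (limma adjusted p = 0.00120) and 0.94 for *LOC_Os02g08500* (0.0131), see Other observations.

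**Figure D5:**
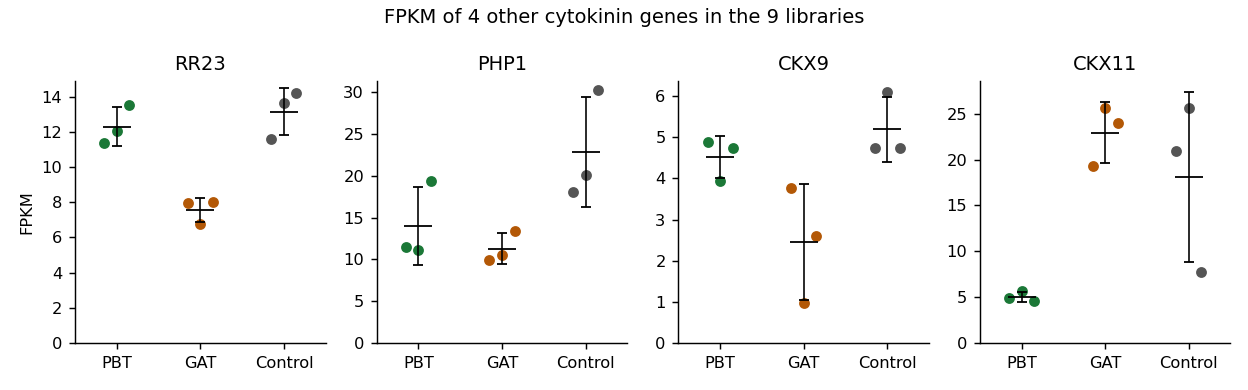
FPKM (vertical axis, a scale for each gene) of *RR23*, *PHP1*, *CKX9* and *CKX11* in the PBT, GAT and Control libraries; points are libraries and the marks with bars are mean ± SD of 3 libraries. *CKX11* is lowest in PBT (4.57 to 5.62 FPKM), and *RR23* (6.76 to 7.99 FPKM) and *CKX9* (0.966 to 3.77 FPKM) are lowest in GAT.

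*PHP1* (*LOC_Os01g54050*), described as a histidine-containing phosphotransfer protein, was at 11.5, 11.1 and 19.3 FPKM in PBT, at 9.95, 10.5 and 13.4 FPKM in GAT, and at 18.1, 20.1 and 30.3 FPKM in the Control. The GAT libraries lay below the Control libraries, with a log2 fold change of -0.93 (SE 0.27, adjusted p = 0.0581). With quantile normalization the value was -1.03 and *PHP1* was a DEG (adjusted p = 0.0428). In PBT/Control it was -0.68 (adjusted p = 0.206). Other listed phosphotransfer loci were left out of the counts for their description. Of these, *LOC_Os09g39400* was at 75.1 to 77.0 FPKM in PBT, 32.3 to 109 FPKM in GAT and 21.8 to 38.5 FPKM in the Control. Its log2 fold change was 1.44 in PBT/Control (limma adjusted p = 0.103) and 1.37 in GAT/Control (0.0835). Those of *LOC_Os08g44350* (-0.48 and -0.14) and *LOC_Os05g44570* (-0.15 and -0.62) were below 0 in both.

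On the synthesis side, *LOGL7* (*LOC_Os05g46360*), described as a possible lysine decarboxylase domain protein, was at 7.23 to 8.60 FPKM in PBT, 8.01 to 15.9 FPKM in GAT and 11.2 to 14.4 FPKM in the Control. PBT lay below the Control (log2 fold change -0.67, SE 0.24, adjusted p = 0.160). *LOC_Os09g23820*, described as a cytochrome P450, was at 0.284 to 1.03 FPKM in PBT, 0.619 to 2.40 FPKM in GAT and 0.0318 to 1.01 FPKM in the Control, with overlap in every pair.

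Some IPP transferases start cytokinin synthesis, and 3 genes with this description were tested. Which of the 3 do so was not tested. The highest, *LOC_Os06g51350*, was at 5.74, 2.89 and 3.03 FPKM in PBT, at 4.18, 0 and 0 FPKM in GAT, and at 0.699, 4.37 and 3.57 FPKM in the Control. The next, *LOC_Os03g59570*, was at 1.03, 0.158 and 0.196 FPKM in PBT, at 0.836, 0.678 and 3.14 FPKM in GAT, and at 1.31, 0 and 0 FPKM in the Control. Both overlapped in every pair of groups. *LOC_Os05g47840*, outside the naming rule and chosen after its values were seen, was at 0.838, 1.42 and 0.130 FPKM in PBT, at 0.285, 0.329 and 0.257 FPKM in GAT, and at 0.772, 1.85 and 1.31 FPKM in the Control. Its GAT libraries lay below those of the Control (adjusted p = 0.188). None of the receptor kinases on the list carries a description, so they were left out of the counts, though they passed the filter. *LOC_Os02g50480* was at 6.14 to 6.60 FPKM in GAT and 1.99 to 4.23 FPKM in the Control. Its log2 fold change of 0.94 (limma adjusted p = 0.0328) passed the adjusted p but not the fold limit. For *LOC_Os01g69920*, *LOC_Os03g50860* and *LOC_Os10g21810* the adjusted p in GAT/Control lay between 0.390 and 0.778.

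Cytokinins are also stored as glucosides, and the table describes 36 entries as cytokinin glucosyltransferases, of which 15 were tested. This group was chosen after its values were seen. None of the 15 was a DEG in PBT/Control, and a single entry, *LOC_Os04g37820* (cytokinin-O-glucosyltransferase 2, putative), was a DEG in GAT/Control and in PBT/GAT. Over all tested entries the shares of DEGs were 4.34% in PBT/Control, 8.42% in GAT/Control and 6.30% in PBT/GAT, so 1 of 15 is near the background. *LOC_Os04g37820* was at 85.0, 97.0 and 95.6 FPKM in PBT, at 218, 223 and 215 FPKM in GAT, and at 90.1, 95.1 and 92.4 FPKM in the Control. GAT lay above both other groups, which overlapped. The log2 fold change was 1.23 in GAT/Control (SE 0.09, adjusted p = 8.45e-05) and -1.23 in PBT/GAT (SE 0.09, adjusted p = 0.000124), and *LOC_Os04g37820* was a DEG in both under each of the 23 alternatives. The next highest entry, *LOC_Os04g25440*, was instead lower in GAT (12.7 to 18.6 FPKM) than in the Control (28.0 to 29.2 FPKM). Its log2 fold change of -0.83 (limma adjusted p = 0.0114) passed the adjusted p but not the fold limit.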

How the data were processed

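Leaves of 3 groups with 3 libraries each were sequenced as paired-end poly(A) RNA. Tophat was the aligner and Cufflinks the assembler per the methods, and the values deposited by the authors are FPKM for each entry in each library. The submitters' processing notes list Bowtie 0.12.2. How entries with MSTRG numbers were made is not given in the sources used here. Libraries were assigned by the table's headers.

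The filter required 0.5 FPKM as the average of the 9 libraries, and log2(FPKM + 1) was fitted with limma 3.58.1 in R 4.3.3 (3 group means, 9 libraries, variance trend, Benjamini-Hochberg adjustment per comparison). DEGs needed an adjusted p below 0.05 and a log2 fold change reaching 1 in either direction.

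The regulators, gene lists and tests were chosen with earlier results of these data known. Named were all 8 regulators and, from each other list, the DEGs (at most 4) and the 2 highest genes by mean FPKM. Listed genes without a matching deposited description were left out of the named genes and the pathway counts, 20 of 41, a rule not applied to the 8 regulators. The values of some of them are given apart, chosen after they were seen. For each regulator that was a DEG, the 3 entries most alike were named. Other settings tried were a pseudocount of 0.1 or 0.5, no filter or one at 5 FPKM, and changes to the scaling, the libraries or block in the fit, the variance trend, the handling of 0, the DEG limits, and the summing of entries.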

Additional observations from a re-analysis of the deposited data

How the results depend on the processing

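*RR9* was a DEG in PBT/GAT under all 22 alternatives that fitted it as its own entry. In PBT/Control, where no regulator was a DEG, 1 (*RR9*) was with no fold limit, and leaving out single libraries gave 0 to 1. Leaving them out gave 0 to 0 regulators in GAT/Control and 1 to 1 in PBT/GAT. Over all entries, the 996 DEGs in PBT/Control became 523 at an adjusted p under 0.01 and 695 to 1013 without single libraries. The 1933 in GAT/Control became 1200 at a mean of at least 5 FPKM, 1109 at an adjusted p under 0.01 and 1651 to 1824 without single libraries. The 1446 in PBT/GAT became 933, 749 and 1063 to 1386 under the same changes. For the other pathway genes in PBT/Control, the count of 0 became 1 at a mean of at least 5 FPKM, with 0 treated as missing or with same-name entries summed, and 0 to 1 without single libraries. In GAT/Control, 0 became 1 with quantile normalization or with no fold limit, and stayed 0 to 0 without single libraries. In PBT/GAT, 1 became 2 with no fold limit, 0 at an adjusted p under 0.01, and 0 to 1 without single libraries. When listed loci were counted whatever their description, an alternative chosen after seeing the data, the counts were 2 in PBT/Control, 2 in GAT/Control and 3 in PBT/GAT. The cause of these changes was not tested.

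The log2 fold change turned its sign only for values that did not pass the test. *RR2* in PBT/Control (-0.10) ranged from -0.31 without PBT replicate 1 to 0.094 without Control replicate 1, with 0.08 without PBT replicate 3. In PBT/GAT (0.18) it ranged from -0.032 without PBT replicate 1 to 0.36 without PBT replicate 3. *RR10* in GAT/Control (0.32) ranged from -0.052 without Control replicate 3 to 0.69 without Control replicate 2. *LOGL7* in GAT/Control (-0.18) ranged from -0.41 without GAT replicate 1 to 0.048 without GAT replicate 3, and *CKX11* in GAT/Control (0.47) from -0.024 without Control replicate 3 to 0.78 without Control replicate 2. *LOC_Os04g37820* in PBT/Control (-0.0016) was 0.012 with quantile normalization and 0.058 with median scaling, and ranged from -0.037 without PBT replicate 2 to 0.058 without PBT replicate 1, with 0.018 without Control replicate 2. With the replicate number as a block, the adjusted p of *RR9* was 0.0101 in PBT/GAT, 0.0651 in PBT/Control and 0.131 in GAT/Control, and that of *RR23* was 0.0848 in PBT/GAT. Same-numbered libraries deviated with correlations of -0.04 to 0.01, against -0.02 to 0.03 for the other pairs between groups. The paper names a randomized complete block design. Whether same-numbered libraries came from the same block is not stated in the sources used here, and these correlations cannot decide it. Fitting the block changed no count of regulators or pathway genes. The table holds no fragment counts, so depth per gene is unknown.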

Other observations

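The pathway counts left out 20 listed loci for their description, of which 18 were tested and 5 were DEGs in some comparison. All DEGs of the list in PBT/Control (2, against 4.34% of all tested entries) and in GAT/Control (2, against 8.42%) were among these 18. In PBT/GAT the list held 3 DEGs, *CKX11* among them (against 6.30%). *LOC_Os01g56810* was listed as a cytokinin dehydrogenase gene, *LOC_Os02g08500* and *LOC_Os03g12350* as type-B regulators, and *LOC_Os09g37540* and *LOC_Os03g64070* as synthesis genes. *LOC_Os01g56810* was at 4.49, 6.56 and 4.88 FPKM in PBT, at 16.6, 10.0 and 11.5 FPKM in GAT, and at 1.97, 0.548 and 0.405 FPKM in the Control, a DEG in PBT/Control (log2 fold change 1.75, limma adjusted p = 0.0161) and in GAT/Control (2.85, adjusted p = 0.000750). *LOC_Os02g08500* was at 16.4, 23.8 and 20.4 FPKM in PBT, at 17.6, 16.0 and 19.5 FPKM in GAT, and at 8.37, 10.3 and 7.74 FPKM in the Control, a DEG in PBT/Control (1.11, adjusted p = 0.00987). *LOC_Os03g12350* was at 70.2, 60.2 and 67.9 FPKM in PBT, at 123, 94.0 and 92.8 FPKM in GAT, and at 42.1, 48.5 and 46.7 FPKM in the Control, a DEG in GAT/Control (1.15, adjusted p = 0.00120). The libraries of both sprayed groups lay above those of the Control for these 3 loci, which were picked as DEGs against the Control. Over all tested entries, 12.9% were higher without overlap in PBT/Control and 16.8% in GAT/Control.

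The other DEGs separated PBT and GAT. *LOC_Os09g37540* was at 25.2, 27.4 and 30.5 FPKM in PBT, at 8.72, 7.31 and 10.9 FPKM in GAT, and at 14.0, 12.1 and 16.2 FPKM in the Control, a DEG in PBT/GAT (1.54, adjusted p = 0.00154). Its libraries had the order of those of *RR9*, with PBT above the Control and the Control above GAT. *LOC_Os03g64070*, which carries the description “uncharacterized protein PA4923”, was at 40.4, 46.4 and 49.2 FPKM in PBT, at 17.2, 24.7 and 19.8 FPKM in GAT, and at 43.7, 32.8 and 46.5 FPKM in the Control, a DEG in PBT/GAT (1.11, adjusted p = 0.00778).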
